A study of Mus musculus with 12 samples.

Results

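The genes described here belong to the liver X receptor (LXR) pathway and to cholesterol efflux: Nr1h2, Nr1h3, Abca1, Abcg1, Apoe, Mylip, Srebf1, Scd1, Scd2 and Lpcat3. These are 10 of the 16288 genes listed in at least one library. The set was chosen by measured values: Abca1 and Abcg1 had lower expected counts with PFI-3 after 48 h of differentiation in these same libraries. For these 10 genes, values at 48 h are therefore a description with no test, and their tests are of comparisons between GM and DM 24h libraries. Marker and pathway genes outside the set were not used to choose it, and their tests at 48 h are given. All 10 genes were listed in all 12 libraries, and all 10 passed the low-count filter that kept 12545 genes.

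RNA was sequenced from C2C12, an immortalized mouse myoblast line, in 12 libraries that form 6 groups of 2 (A and B). Proliferating cells (GM) grew in 10% fetal bovine serum, and were exposed for 12 h to the vehicle DMSO or to 50 uM PFI-3, a ligand of the bromodomains in the SWI/SNF ATPases BRG1 and BRM. Differentiating cells had the same 12 h exposure, were then moved at high confluency to 2% horse serum with 2 ug/ml insulin, and were collected 24 h (DM 24h) or 48 h (DM 48h) later, with DMSO or PFI-3 renewed every 24 h. All groups come from 1 line. The study's design text calls A and B biological duplicates and does not say whether they were grown on separate days, so the p-values measure the spread between these samples only.

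LXRs are nuclear receptors that are activated by oxysterols, oxidized forms of cholesterol, and that bind DNA as partners of the retinoid X receptors (RXR). Their targets move cholesterol out of the cell, reduce its uptake through the LDL receptor, and raise fatty acid synthesis and desaturation through SREBP-1c, a product of Srebf1. Srebf1, Scd1 and Scd2 also respond to the SREBP transcription factors, which are released when sterols are scarce, so these genes are not read by LXR alone.

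The DNA letters that LXR-RXR pairs favour are a spaced direct repeat called DR4. Its core was searched on both strands as the unit GGTNA, any 5 bases and a further GGTNA, in RefSeq promoter windows (GRCm38.p6), each of 250 bases before and 50 after a gene start. The windows cover 7 of the 10 genes, with 12 windows in all, and Abcg1, Scd1 and Scd2 were not analysed here. A match was present in 2 of the 12 windows, one of Abca1 and one of Srebf1, and in 236 of 32851 windows of all genes (0.718%). The stretches are shown because they are the matches among the 10 genes. Capitals mark the match as read on the strand of the gene, where the repeat runs in the reverse direction, and 7 bases are given on each side.
Abca1 chr4:53159941-53159969, minus strand: cagcgttTGACCGGTAGTAACCccggcgc
Srebf1 chr11:60210632-60210660, minus strand: acgacagTGACCGCCAGTAACCccagcgc
The Abca1 match lies 67 to 53 bases before the start used in that table, and the Srebf1 match 182 to 168 bases before its start. RefSeq's whole Abca1 record (chr4:53030789-53159988) begins further upstream and contains the match, so the match is not upstream of that record. In GENCODE M21, which uses the same build, the 250 bases before the Abca1 start overlap no transcript. Those before the Srebf1 start overlap 2 transcripts and no exon, so that the site is intronic to them.
The whole 250 bases before this internal Srebf1 start (chr11:60210472-60210721, minus strand) are given for context, with the match in capitals.
Srebf1: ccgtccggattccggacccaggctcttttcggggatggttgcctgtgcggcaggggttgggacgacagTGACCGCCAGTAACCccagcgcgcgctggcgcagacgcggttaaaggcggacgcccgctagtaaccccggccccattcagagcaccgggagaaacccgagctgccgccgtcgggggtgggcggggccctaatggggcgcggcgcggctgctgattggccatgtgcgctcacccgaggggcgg
A sterol response element in the form TCACNCCAC was in 0 of the 12 windows and in 1.24% of all windows. The E-box CACGTG was found only in the Abca1 window among the 7 genes, 147 to 142 bases before its start, and in 7.15% of all windows. A match describes letters and was not tested for binding.

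Total expected counts ranged from 12576374 to 13658352 per library. The GM pairs were less alike than the others: among genes averaging 50 or more counts, log2 B/A had an SD of 0.38 (DMSO) and 0.346 (PFI-3) in GM, and of 0.145 to 0.175 in the 4 DM pairs. The main tests share their estimate of spread over all 6 groups. Their p-values in GM or DM therefore do not measure the spread of that stage alone. Skeletal muscle markers were present, with Myod1 between 112.6 and 462.6 CPM (counts scaled to the library total) and Des between 272.4 and 2125.2 CPM. The macrophage marker Adgre1 was at 0 in every library, and Ptprc and Aif1 reached at most 2 counts and 1 count. Cd68 was present in all 12 libraries, at up to 127 counts (9.05 CPM). Csf1r was also present in all 12, at up to 7 counts, and Itgam reached 26 counts (2.11 CPM). The 6 macrophage markers together summed to 1.19 to 9.55 CPM, the highest in library B of GM PFI-3. The adipocyte markers Plin1 and Lep were at 0, Adipoq reached 1 count and Fabp4 3, while Pparg and Cebpa were present at up to 23.4 and 21.3 CPM. The 6 adipocyte markers together summed to 13.9 and 14.5 CPM with DMSO and 23.1 and 25.5 CPM with PFI-3 at DM 24h. In GM they summed to 21.1 and 27.3 CPM with DMSO and 29.8 and 27.9 CPM with PFI-3. At DM 48h the groups overlapped, at 22.2 and 23.3 CPM with DMSO and 21.4 and 22.3 CPM with PFI-3.

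Of the receptors, the C2C12 libraries held mostly LXR-beta RNA. Nr1h2 (LXR-beta, chr7:44549616-44553968) lay between 26.03 and 42.46 FPKM (fragments scaled by transcript length and library total, so that levels can be compared between genes). Nr1h3 (LXR-alpha, chr2:91184061-91202829), the form known from liver, macrophages and fat, lay between 0.14 and 0.67 FPKM. The Nr1h2 to Nr1h3 ratio ran from 38.9 to 273 over the 12 libraries, and it is imprecise because Nr1h3 rested on 3 to 16 expected counts per library.

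Nr1h2 stood at 29.42 and 31.67 FPKM with DMSO and at 37.67 and 42.46 with PFI-3 at DM 24h. Both PFI-3 libraries were above both DMSO libraries. The log2 fold change was 0.34 (SE 0.08), with an edgeR adjusted p of 0.012. This call was lost without library A of DM 24h DMSO (0.29, adjusted p = 0.114) or without library B of DM 24h PFI-3 (0.25, adjusted p = 0.125). In GM the values were 26.35 and 26.03 FPKM with DMSO and 31.93 and 34.01 with PFI-3, a log2 difference of 0.23 (SE 0.08, adjusted p = 0.0965) that was not called. At DM 48h the groups overlapped, with 37.01 and 34.79 FPKM for DMSO and 38.24 and 36.00 for PFI-3.

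Nr1h3 gave 0.21 and 0.51 FPKM with DMSO and 0.66 and 0.43 with PFI-3 at DM 24h, so that the groups overlapped. Its log2 differences were 0.48 (SE 0.54, adjusted p = 0.568) at that stage and -0.28 (SE 0.47, adjusted p = 0.74) in GM. Differences of this size were not detectable at 3 to 16 counts per library.

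**Figure D1:**
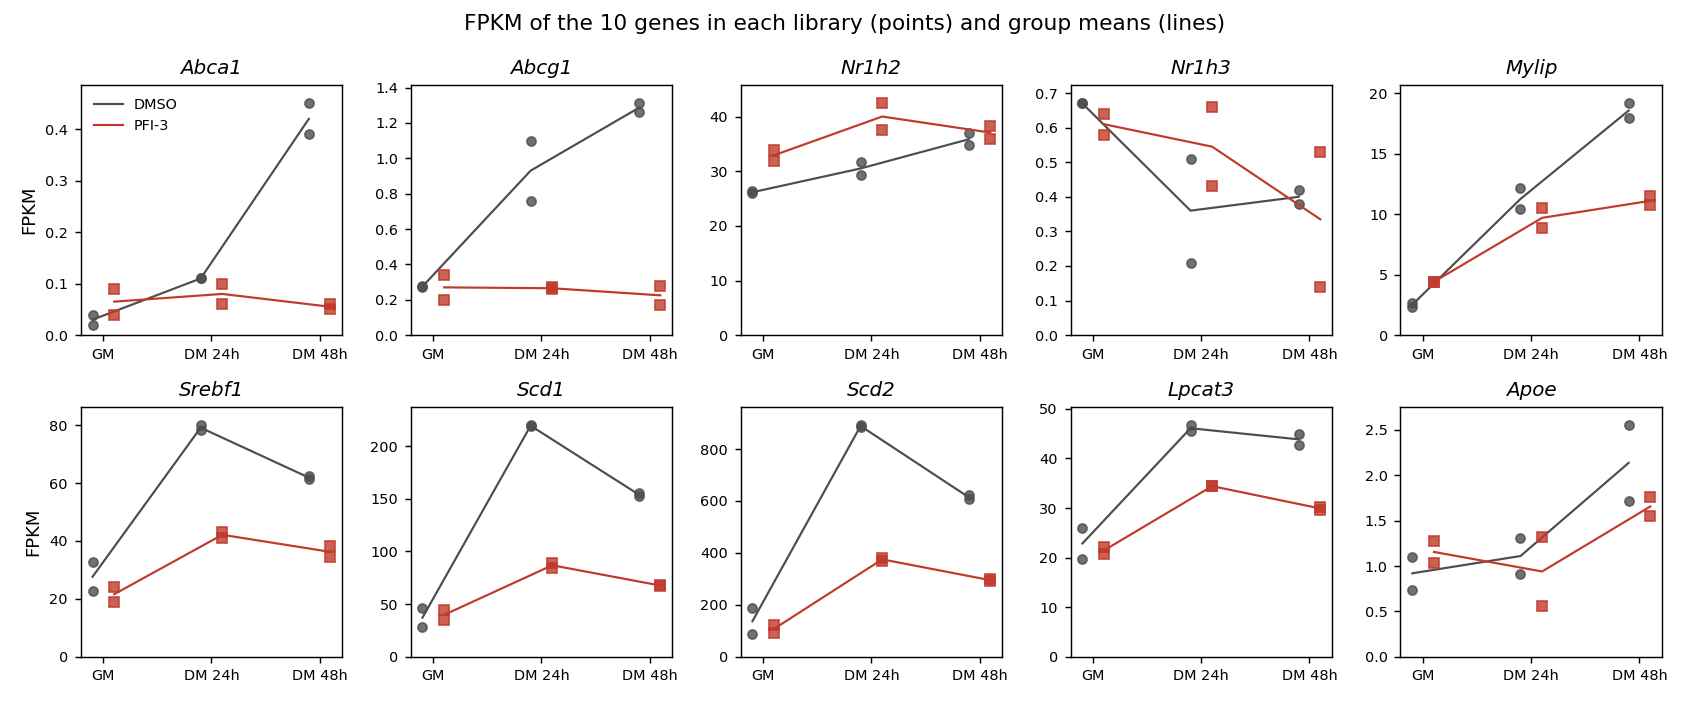
FPKM (y axis, linear, from 0) of each of the 10 genes by stage (x axis), with grey circles for the 2 DMSO libraries, red squares for the 2 PFI-3 libraries and lines through group means. The Abca1 and Abcg1 lines separate with DMSO rising to 0.39 and 0.45 FPKM (Abca1) and 1.26 and 1.31 FPKM (Abcg1) at DM 48h, whereas Nr1h3 and Apoe show overlapping points at DM 24h.

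Abca1 and Abcg1 are the cholesterol exporters of the set: Abca1 loads lipid-poor apolipoprotein A-I, and Abcg1 passes cholesterol on to HDL particles. Both had few reads in C2C12 cells. Abca1 (NCBI Gene 11303, chr4:53030789-53159988) had 3 and 5 expected counts in GM DMSO, 6 and 13 in GM PFI-3, 14 and 15 in DM 24h DMSO, and 8 and 13 in DM 24h PFI-3. At DM 48h it had 51 and 58 counts with DMSO and 8 and 6 with PFI-3. The DM 48h DMSO libraries thus stood above all other libraries, and the PFI-3 libraries at that stage were in the range of GM PFI-3 and DM 24h PFI-3. The described log2 difference at DM 48h was -3.00 (SE 0.38).

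On differentiation for 24 h, Abca1 rose in DMSO cells by 1.87 on the log2 scale (SE 0.51, edgeR adjusted p = 0.00722). On log2(FPKM + 1) with limma this change was 0.11 and was not called (adjusted p = 0.149), since all Abca1 levels were below 1 FPKM. In PFI-3 cells the change was 0.22 (SE 0.46, adjusted p = 0.689). The difference between the 2 responses was -1.64 (SE 0.70, adjusted p = 0.237) and did not pass the threshold. With PFI-3 against DMSO, Abca1 gave -0.50 at DM 24h, with an SE of 0.42 and an adjusted p of 0.427. In GM it gave 1.14, with an SE of 0.55 and an adjusted p of 0.202. Neither passed, and with 3 to 15 counts in these 8 libraries the depth limits both.

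Abcg1 (NCBI Gene 11307, chr17:31057694-31117984) was called lower with PFI-3 at DM 24h. Abca1 was not called there, and the 2 genes were not compared by a test. Abcg1 had 80 and 57 expected counts in DM 24h DMSO against 20 and 19 in DM 24h PFI-3. These groups did not overlap, and the log2 fold change was -1.85 (SE 0.30, adjusted p = 0.0011), a level 3.6-fold lower with PFI-3. In GM the counts were 22 and 21 with DMSO and 26 and 16 with PFI-3, and the difference was -0.11 (SE 0.35, adjusted p = 0.871). DMSO cells raised Abcg1 by 1.71 (SE 0.29, adjusted p = 0.000327) over the first 24 h of differentiation. PFI-3 cells gave -0.03 (SE 0.36, adjusted p = 0.957) over the same interval.

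The difference between these responses, -1.74 (SE 0.47), had an adjusted p of 0.0654 and so missed the threshold. It passed without library B of GM PFI-3 (-2.06, adjusted p = 0.0288), and over all alternatives its adjusted p ran from 0.0288 to 0.224. At DM 48h, Abcg1 had 93 and 96 counts with DMSO and 20 and 12 with PFI-3, a described log2 difference of -2.61 (SE 0.30). The PFI-3 libraries of all 3 stages therefore lay between 12 and 26 counts, and the DMSO libraries between 21 and 96.

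Apoe (chr7:19696244-19701310), the apolipoprotein that carries cholesterol on particles secreted by many cells, stayed low. It had 13 and 20 counts with DMSO and 8 and 19 with PFI-3 at DM 24h, which overlap, and a log2 difference of -0.33 (SE 0.46, adjusted p = 0.654). In GM the difference was 0.17 (SE 0.44, adjusted p = 0.837). The highest Apoe counts were 27 and 38 in DM 48h DMSO, beside 22 and 27 in DM 48h PFI-3.

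Mylip (chr13:45389742-45411940) encodes the ubiquitin ligase IDOL, an LXR product that marks the LDL receptor for breakdown. Its level climbed with differentiation: 2.68 and 2.36 FPKM in GM DMSO, 10.38 and 12.12 in DM 24h DMSO, and 19.14 and 17.96 in DM 48h DMSO. With PFI-3 the GM libraries gave 4.41 and 4.41 FPKM, the DM 24h libraries 8.87 and 10.51, and the DM 48h libraries 10.71 and 11.48. Both GM PFI-3 libraries exceeded both GM DMSO libraries, and at DM 48h both PFI-3 libraries were below both DMSO libraries. The DM 24h groups overlapped in FPKM but not in the CPM of the test, where they had 30.1 and 35.4 CPM with DMSO and 25 and 29.6 CPM with PFI-3.

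Mylip rose with PFI-3 in GM by 0.71 on the log2 scale (SE 0.14, adjusted p = 0.0099). A fit of the GM libraries alone did not call it (0.72, adjusted p = 0.249), and called 18 genes higher and 20 lower in all. That fit with the replicate letter as a block, added after the data were seen, called it (0.72, adjusted p = 0.0276). It called 491 genes higher and 431 lower in all. At DM 24h the difference was -0.26 (SE 0.11, adjusted p = 0.112), and a fit of the 4 DM 24h libraries alone called it (adjusted p = 0.0159). The PFI-3 effect at DM 24h was lower than that in GM by a tested -0.97 (SE 0.18, adjusted p = 0.0164). This difference between stages was not called in a fit of only these 8 libraries (-0.96, adjusted p = 0.0842), without library A of DM 24h PFI-3 (-0.85, 0.0821) or without library B of DM 24h DMSO (-0.84, 0.0817). Mylip rose over the first 24 h of differentiation in both treatments, by 2.10 (SE 0.13, adjusted p = 6.57e-08) with DMSO and by 1.13 (SE 0.12, adjusted p = 8.76e-06) with PFI-3.

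Among the lipid synthesis genes, Scd2 and Scd1 had the highest mean FPKM of the set in all 6 groups. Srebf1 and Lpcat3 were above Nr1h2 in some groups and below it in others. Srebf1 (chr11:60199084-60224186) encodes SREBP-1a and SREBP-1c, factors that switch on fatty acid synthesis. It had 22.60 and 32.68 FPKM in GM DMSO and 19.02 and 24.20 in GM PFI-3, which overlap. On the CPM scale of the test these groups did not overlap, with 102.8 and 140.3 CPM for DMSO and 78.3 and 100 CPM for PFI-3. At DM 24h it had 79.95 and 78.26 FPKM with DMSO and 43.16 and 41.11 with PFI-3, and the groups were far apart. Srebf1 fell with PFI-3 at DM 24h by 0.95 on the log2 scale (SE 0.13, adjusted p = 0.000343). In GM its difference of -0.45 (SE 0.14) had an adjusted p of 0.0522, and it was called under several other settings (adjusted p from 0.00256 to 0.424 over all of them). At DM 48h it had 62.51 and 61.25 FPKM with DMSO and 38.14 and 34.30 with PFI-3, a described log2 difference of -0.85 (SE 0.13).

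Srebf1 is listed with 4 RefSeq transcripts, and each table gives their mean length weighted by use. At DM 24h this length was 4301.27 and 4301.43 bases with DMSO and 4312.66 and 4317.82 with PFI-3, so that the groups did not overlap. The same held in that direction for 18.5% of 3527 well-expressed genes with several transcripts, so the separation at that stage is no result about Srebf1. In GM the lengths overlapped, with 4336.01 and 4327.23 bases for DMSO and 4341.85 and 4329.59 for PFI-3. At DM 48h they were 4300.9 and 4308.12 bases with DMSO and 4323.1 and 4320.75 with PFI-3. These did not overlap, in the same direction, as held for 17.8% of the 3527 genes. The share of genes longer at both DM stages was not counted.

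Scd1 (chr19:44394450-44407709) and Scd2 (chr19:44293676-44306864) are neighbouring genes for stearoyl-CoA desaturases, which turn saturated into monounsaturated fatty acids. Their expected counts were fractional in 100% of libraries, as occurs when reads are shared between similar genes, so the split between them is uncertain and their sum is given too. Scd1 had 218.82 and 219.77 FPKM with DMSO and 84.49 and 89.30 with PFI-3 at DM 24h. Scd2 had 891.69 and 885.84 FPKM with DMSO and 379.94 and 370.77 with PFI-3 at the same stage. Neither gene's groups overlapped, and replicates differed far less than treatments.

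Both desaturases fell with PFI-3 at DM 24h: Scd1 by 1.38 on the log2 scale (SE 0.16, adjusted p = 8.67e-05) and Scd2 by 1.29 (SE 0.23, adjusted p = 0.00221). Their summed level was 5832.6 and 5836.8 CPM with DMSO and 2370 and 2344.4 CPM with PFI-3, which does not depend on how reads were split between them. At DM 48h the sum was 4270.7 and 4179.1 CPM with DMSO and 1900.1 and 1863.5 CPM with PFI-3.

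In GM the DMSO pair was itself apart, with Scd2 at 87.60 FPKM in library A and 187.11 in library B. Scd1 there was 28.07 and 46.47 FPKM with DMSO and 35.18 and 44.50 with PFI-3. The GM differences were 0.01 (SE 0.16, adjusted p = 0.995) for Scd1 and -0.43 (SE 0.23, adjusted p = 0.25) for Scd2. Without library A of GM DMSO the Scd2 difference was -0.85 (adjusted p = 0.00064), and without library B of GM DMSO the Scd1 difference was 0.37 (adjusted p = 0.0273).

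The PFI-3 effect on Scd1 was lower at DM 24h than in GM by 1.39 on the log2 scale (SE 0.22, adjusted p = 0.00717). This difference was not called without library A of DM 24h PFI-3 (-1.35, adjusted p = 0.0581) or in a fit of only these 8 libraries (-1.38, 0.0608). For Scd2 it was -0.86 (SE 0.33, adjusted p = 0.187), and without library B of GM DMSO it was -1.45 (adjusted p = 0.000221).

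Lpcat3 (chr6:124663094-124704716) encodes the acyltransferase that places polyunsaturated chains in membrane phospholipids. It had 45.49 and 46.71 FPKM with DMSO and 34.36 and 34.49 with PFI-3 at DM 24h. The groups were separate, and Lpcat3 fell by 0.47 on the log2 scale (SE 0.09, adjusted p = 0.00271), the smallest of the called declines among the 10 genes. At DM 48h it had 44.99 and 42.73 FPKM with DMSO and 30.17 and 29.67 with PFI-3, a described difference of -0.64 (SE 0.09). In GM the difference was -0.19 (SE 0.09, adjusted p = 0.213), and it was called without library A of GM DMSO (-0.33, adjusted p = 0.0206).

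**Figure D2:**
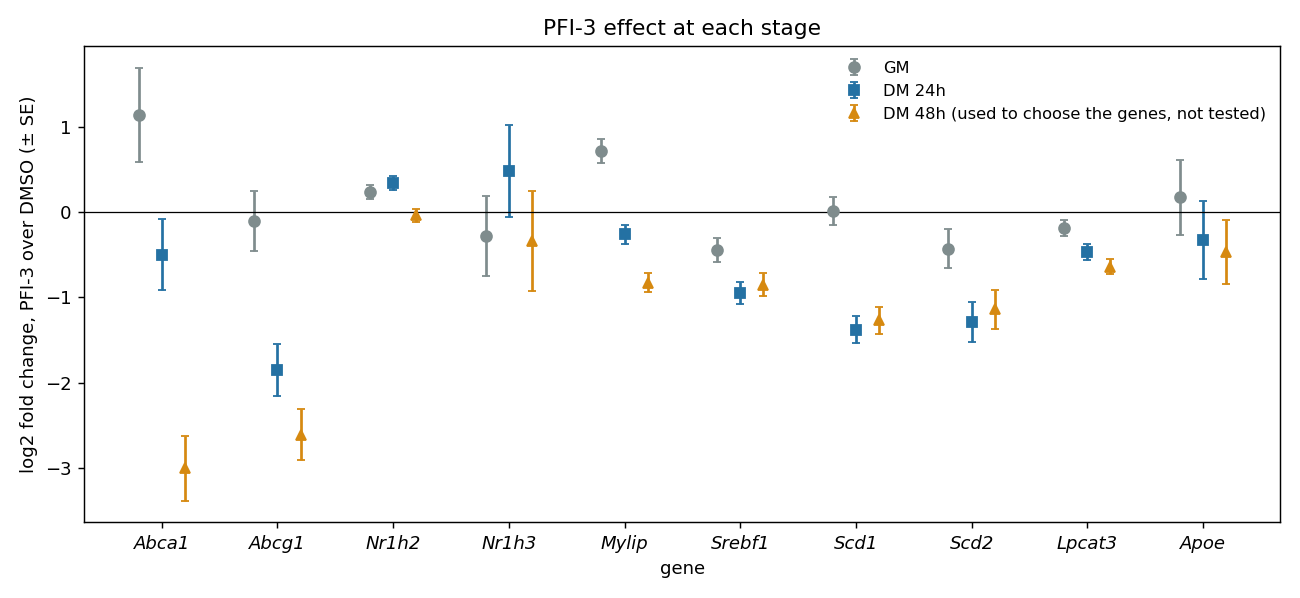
Log2 fold change of PFI-3 over DMSO with its SE (y axis) for each of the 10 genes (x axis), from the edgeR fit, in GM (grey circles), DM 24h (blue squares) and DM 48h (orange triangles, description only). At DM 24h Abcg1 (-1.85), Scd1 (-1.38), Scd2 (-1.29) and Srebf1 (-0.95) lie furthest below 0, and Abca1 lies lowest at DM 48h (-3.00).

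Counted together, PFI-3 changed 6 of the 10 genes at DM 24h. Abcg1, Scd1, Scd2, Srebf1 and Lpcat3 were lower and Nr1h2 was higher. Over all 12545 genes tested, 23.6% were called in this comparison, 11.4% lower and 12.2% higher. In GM, 1 of the 10 genes was called (Mylip, higher), against 11.6% of all genes (5.46% higher and 6.15% lower). Without library A of GM DMSO the GM count was 4 (Lpcat3, Mylip, Scd2 and Srebf1), and in a fit of the GM libraries alone it was 0. The difference between the DM 24h and GM effects was called for 2 of the 10 genes (Scd1 and Mylip, both lower) and for 3.37% of all genes, 1.59% being lower. That count was 5 without library B of GM DMSO and 0 without library A of DM 24h PFI-3.

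At DM 48h, where the choice of genes used the comparison, the described log2 differences were -3.00 for Abca1, -2.61 for Abcg1, -1.27 for Scd1, -1.14 for Scd2, -0.85 for Srebf1, -0.83 for Mylip and -0.64 for Lpcat3. Apoe (-0.47, SE 0.37), Nr1h3 (-0.34, SE 0.59) and Nr1h2 (-0.04, SE 0.08) had differences near or within their errors.

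The same libraries, read along differentiation, show how the genes behave in vehicle cells. From GM to DM 24h with DMSO, 7 of the 10 genes rose, where 60.6% of all genes were called and 30.6% were higher. The largest changes were in Scd2 (2.66, SE 0.25, adjusted p = 2.06e-06), Scd1 (2.51, SE 0.17, adjusted p = 1.08e-07) and Mylip (2.10), with Abca1, Abcg1, Srebf1 (1.46) and Lpcat3 (0.96) also called. Nr1h2 (0.17, adjusted p = 0.1), Nr1h3 (-0.90, adjusted p = 0.147) and Apoe (0.13, adjusted p = 0.818) were not called. This comparison and that of PFI-3 with DMSO at DM 24h share the DM 24h DMSO libraries, so their values stand side by side and do not support each other.

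With PFI-3, 6 of the 10 genes rose from GM to DM 24h, where 60.3% of all genes were called and 32.1% were higher. Scd2 rose by 1.80 (SE 0.24, adjusted p = 4.56e-05), Mylip by 1.13, Scd1 by 1.12 (SE 0.16, adjusted p = 8e-05), Srebf1 by 0.96 (SE 0.13, adjusted p = 7.31e-05), Lpcat3 by 0.68 (SE 0.09, adjusted p = 5e-05) and Nr1h2 by 0.28 (SE 0.08, adjusted p = 0.0117). The Nr1h2 call was lost with DESeq2 (0.25, adjusted p = 0.0538) and in a fit of only the libraries compared (0.25, adjusted p = 0.0565). It was also lost without library B of DM 24h PFI-3 (0.19) or library A of GM PFI-3 (0.23). Abca1 and Abcg1 were the genes called with DMSO and not with PFI-3, and the tests of those differences, given above, did not pass.

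**Figure D3:**
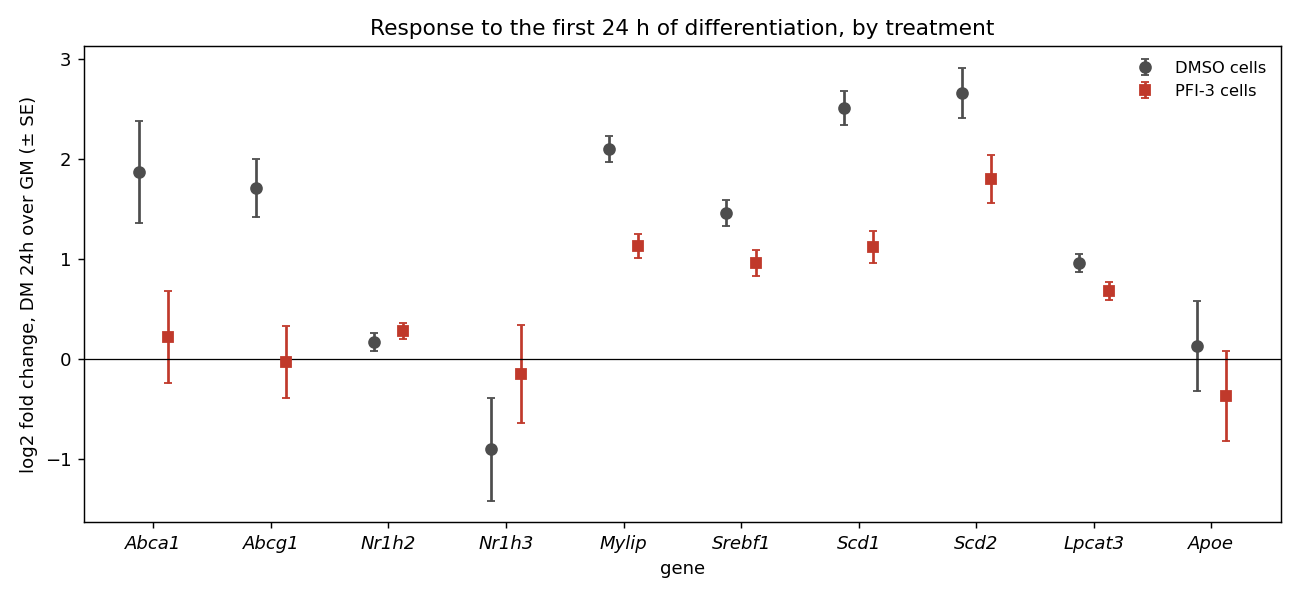
Log2 fold change from GM to DM 24h with its SE (y axis) for each of the 10 genes (x axis), in DMSO cells (grey circles) and PFI-3 cells (red squares). Abcg1 stands at 1.71 with DMSO and -0.03 with PFI-3, and Scd2 rises in both (2.66 and 1.80).

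From DM 24h to DM 48h the vehicle cells split the set, as a description. Abca1 (1.96, SE 0.33), Apoe (1.03, SE 0.40), Mylip (0.78, SE 0.11), Abcg1 (0.52, SE 0.24) and Nr1h2 (0.30, SE 0.08) were higher at the later time. Scd2 (-0.47, SE 0.23), Scd1 (-0.45, SE 0.16) and Srebf1 (-0.29, SE 0.13) were lower, and Lpcat3 (-0.01, SE 0.09) was level. Thus the exporters and Mylip stood highest at DM 48h, and the desaturases and Srebf1 at DM 24h.

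By mean FPKM, Scd2 and then Scd1 led the order in all 6 groups, with Scd2 at 2.61 to 4.5 times Scd1. Srebf1, Nr1h2 and Lpcat3 followed, and their order varied between groups. In GM DMSO the range of Srebf1 (22.60 to 32.68 FPKM) overlapped those of Nr1h2 (26.03 to 26.35) and Lpcat3 (19.81 to 25.92). Mylip was sixth and Apoe the next in every group. Abca1 was the lowest in 5 groups, and in DM 48h DMSO its 0.39 and 0.45 FPKM overlapped Nr1h3 at 0.38 and 0.42.

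The muscle markers moved with the treatment. The 7 markers (Myod1, Myf5, Myog, Des, Cdh15, Ckm and Myh3) summed to 3083.6 and 3078.7 CPM with DMSO and 1866.9 and 1843.1 CPM with PFI-3 at DM 24h. There 4 of the 7 were called lower (Myog at -1.05, Cdh15 at -0.90, Ckm at -1.36 and Myh3 at -1.64), beside 11.4% of all genes. At DM 48h the 7 markers summed to 10965.6 and 10969.3 CPM with DMSO and 7971 and 7484.7 CPM with PFI-3. The same 4 markers were lower (Myog at -0.62, Cdh15 at -0.33, Ckm at -0.92 and Myh3 at -0.58), beside 14% of all genes. Their part in the lower Abca1, Abcg1, Mylip and lipid synthesis values was not tested. In these bulk samples, fewer cells of a differentiated type and less RNA per cell cannot be told apart.

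Cholesterol synthesis genes, which SREBP2 controls and which supply the sterols that LXR senses, were low with PFI-3 at DM 24h too. Of 25 such genes, 20 fell and 1 rose at that stage, where 11.4% of all genes were lower and 12.2% higher, with a median log2 change of -0.85 against -0.001 over all genes. Pmvk (-1.38, SE 0.16, adjusted p = 8.71e-05) and Lss (-1.28, SE 0.24, adjusted p = 0.00256), both pathway enzymes, fell most. Scap, the escort of the SREBPs, rose (0.57, SE 0.08, adjusted p = 0.000454). In GM, 6 of the 25 were lower, beside 6.15% of all genes, with a median of -0.63 against -0.01 over all genes. In a fit of the GM libraries alone 0 were lower, and that fit called 20 genes lower in all. The PFI-3 effect was called lower at DM 24h than in GM for 1 of the 25, beside 1.59% of all genes. The median of that difference was -0.22. At DM 48h, where 27.4% of all genes were called (14% lower, 13.4% higher), 2 of the 25 were lower (Dhcr7 at -0.92 and Pmvk at -0.71) and 1 was higher (Scap at 0.46), with a median of -0.14. In a fit of only the DM 48h libraries 13 of the 25 were called lower, and 22.8% of all genes. The rise of the PFI-3 effect from DM 24h to DM 48h was itself called for 4 of the 25 and for 7.12% of all genes.

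Fatty acid synthesis genes under SREBP-1 were also lower at DM 24h: of 12 tested, 6 fell, against 11.4% of all genes, and the other 6 were not called, with a median of -0.44. Fads2 (-0.99) and Fads1 (-0.73), the desaturases of polyunsaturated fatty acids, are examples. At DM 48h, 2 of the 12 were lower (Acacb at -1.25 and Acss2 at -0.65) and 1 was higher (Me1 at 0.61), with a median of -0.10, where 14% of all genes were lower and 13.4% higher. In a fit of only the DM 48h libraries 5 were lower, against 22.8% of all genes.

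Of 9 further LXR targets with enough reads, 3 fell and 1 rose at DM 24h, where 11.4% of all genes were lower and 12.2% higher. At DM 48h 2 fell and 2 rose, beside 14% lower and 13.4% higher of all genes. Pltp, the phospholipid transfer protein, rose with PFI-3 in both, the opposite direction to Abcg1. Its log2 change was 0.89 (SE 0.16, adjusted p = 0.002) at 24 h and 0.72 (SE 0.16, adjusted p = 0.00575) at 48 h. Lipoprotein lipase, Lpl, was higher at DM 48h (0.93, SE 0.26, adjusted p = 0.0176). Apod was lower at both stages (-1.24 and -1.60), and so was Acaca (-1.02 and -0.30), the carboxylase that begins fatty acid synthesis. Fasn, the synthase itself, was the remaining gene that fell at DM 24h (-0.83). Acaca and Fasn were counted in this list and not among the 12 fatty acid synthesis genes above. In GM, 3 of the 9 were lower and 0 higher, beside 6.15% lower and 5.46% higher of all genes. Fasn (-0.6) and Acaca (-0.29) were among those 3. The called genes of this list lay in both directions at DM 24h and DM 48h.

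Of 15 RXR and coregulator genes, 1 rose (Rxrb at 0.25) and 4 fell (Ncoa1 at -0.46 and Gps2 at -0.35 the most) at DM 24h, beside 12.2% higher and 11.4% lower of all genes. At DM 48h, Ncoa3 rose (0.25). Of 18 genes of sterol uptake, storage and traffic, 4 rose and 2 fell at DM 24h, against the same shares of all genes. The VLDL receptor Vldlr led them, with 10.5 and 9.52 CPM with DMSO and 38.1 and 42.3 CPM with PFI-3 (2.00, SE 0.26, adjusted p = 0.000229). It also rose in GM, from 3.21 and 2.14 CPM to 19.2 and 8.83 CPM (2.39, SE 0.35, adjusted p = 0.00145). A fit of the GM libraries alone did not make this call (adjusted p = 0.13), and that fit with the replicate block did (adjusted p = 0.000121). At DM 48h Vldlr had 22.5 and 17.8 CPM with DMSO and 25.7 and 25.5 CPM with PFI-3, and was not called (0.34, SE 0.25, adjusted p = 0.342), although a fit of those libraries alone called it (adjusted p = 0.00897). Its PFI-3 effect was lower at DM 48h than at DM 24h by a tested -1.66 (SE 0.36, adjusted p = 0.0109). This difference was not called with limma on log2(FPKM + 0.1) (-1.54, adjusted p = 0.0626). The call was also lost without library A of DM 48h DMSO (-1.49) or library B of DM 24h DMSO (-1.59), DM 24h PFI-3 (-1.58) or DM 48h PFI-3 (-1.65). At DM 24h Nceh1 rose (0.56), and Cav1 (-0.47) and Abca5 (-0.36) fell. At DM 48h, 1 rose (Npc1 at 0.34) and 4 fell, beside 13.4% higher and 14% lower of all genes. Among those that fell were the scavenger receptor Cd36 (-1.47, SE 0.32, adjusted p = 0.00598) and Cav1 (-0.55). The 3 tested enzymes that make or clear oxysterols were not called with PFI-3 at DM 24h in the fit of all libraries: Ch25h gave -0.45 (SE 0.38), Cyp39a1 -0.35 (SE 0.15) and Cyp46a1 0.02 (SE 0.28).

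**Figure D4:**
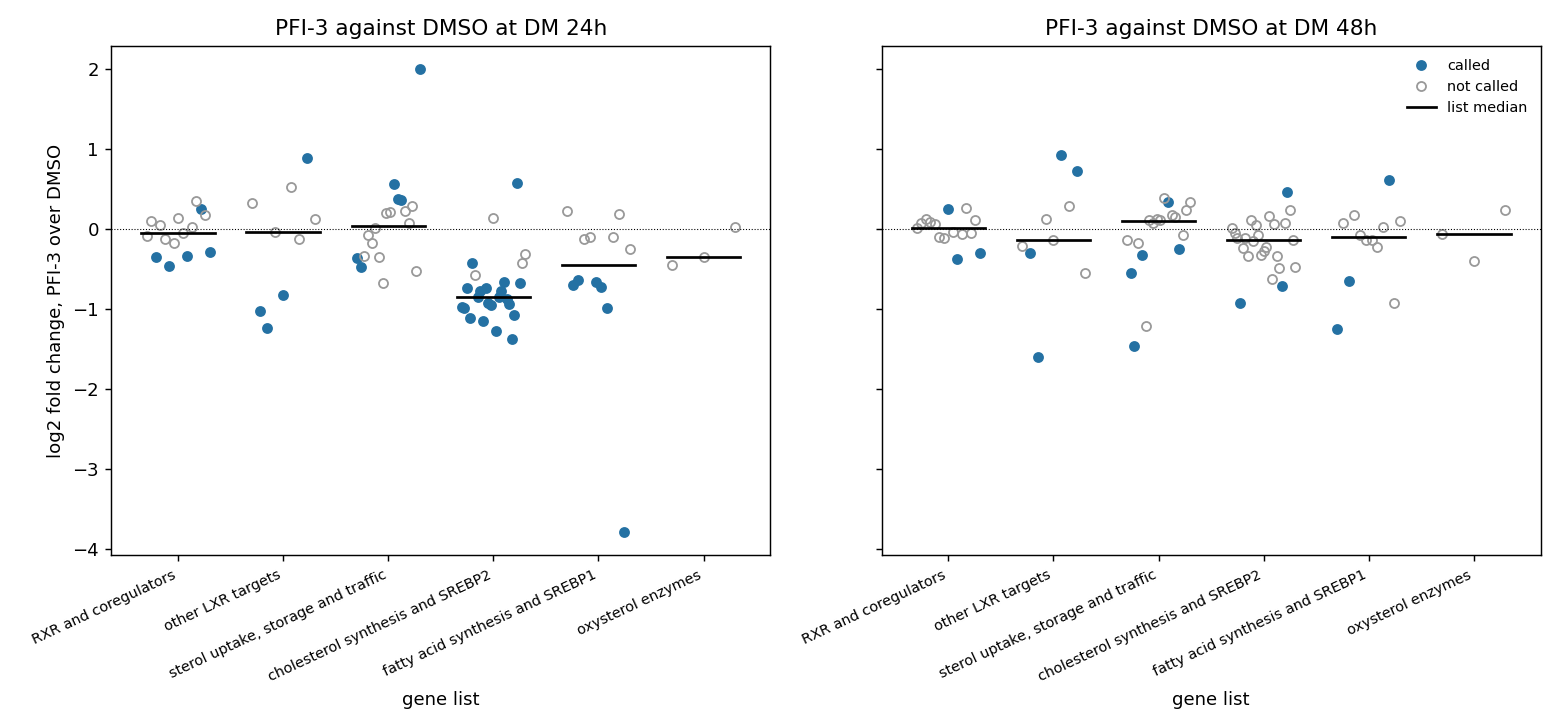
Log2 fold change of PFI-3 over DMSO (y axis) of each tested gene in the 6 pathway lists (x axis), none of them among the 10 genes, at DM 24h (left) and DM 48h (right), with filled blue points for called genes, open grey points for the rest and a black line at the list median. The cholesterol synthesis median is -0.85 on the left and -0.14 on the right, and Vldlr stands alone at 2.00 in the DM 24h panel.

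The genes whose levels most resembled those of the exporters over the 12 libraries were found by Pearson's r of log2 CPM among 10367 genes, as a description in which all points share their libraries. Nearest to Abca1 were Plekhh2 (0.937), Mpg (0.936), Rprd1a (0.932), Emp2 (0.918) and Egln3 (0.917), and nearest to Abcg1 were Spata13 (0.927), Krba1 (0.924), Nav1 (0.917), Ppp2r3a (0.909) and Jcad (0.902). Spata13, for example, had 21.6 and 18.1 CPM in DM 24h DMSO and 8.37 and 8.85 CPM in DM 24h PFI-3. Abca1 and Abcg1 had an r of 0.80 with each other. The 12 libraries include those whose lower values with PFI-3 led to the choice of these genes. The r between them is therefore partly set by that choice and is no test of a link. The lists of nearest genes rest on the same values. Among the other members, Abcg1 was closest to Scd1 and Lpcat3 (both 0.79) and had 0.05 with Nr1h2, and Abca1 was closest to Mylip (0.78).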

How the data were processed

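Each library has 1 deposited table with an expected count and an FPKM value per gene, per the file headers. The expected counts are the authors' estimates per gene, not scaled, and 93.3% to 93.7% of them are whole numbers. The FPKM values carry the authors' scaling to transcript length and library total. The submitters' processing notes give mm10 as the build and name the tools HISAT, StringTie, Cufflinks, Bowtie, RSEM and DESeq2; their roles and versions are not given in the sources used here. Replicates were not pooled, and a gene with no row in a table was taken as 0.

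Expected counts were rounded and tested with edgeR 4.0.16 (R 4.3.3), by the quasi-likelihood test with TMM scaling, in 1 model of 6 groups and 12 libraries, after edgeR's low-count filter. Benjamini-Hochberg adjustment ran over 12545 genes, with calls at an adjusted p under 0.05. Each SE is the log2 fold change divided by the square root of the test statistic. CPM uses the TMM-adjusted library total. Alternatives were the replicate letter as a block, DESeq2-style size factors, DESeq2 1.42.0, no filter, a filter on a mean of 10 counts, limma 3.58.1 on log2(FPKM + 1) and log2(FPKM + 0.1), separate fits of the groups in each comparison, and leaving out each library. The steps were tested on simulated data.

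The members and lists were chosen with earlier results of these data known, so no p-value is adjusted over a list alone. All 10 members are named. From each pathway list, leaving out means under 1 CPM, the 2 called genes with the largest rise and the 2 with the largest fall with PFI-3 at DM 24h and at DM 48h are named. The genes most like Abca1 and Abcg1 are the 5 with the highest r among tested genes averaging 5 CPM or more (prior count 2). Some named genes are not reported here. Promoter sequences and gene positions are from RefSeq, GRCm38.p6.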

Additional observations from a re-analysis of the deposited data

Results flagged for a closer look

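The PFI-3 effect on Mylip differed between stages: its log2 fold change was 0.71 in GM and -0.26 at DM 24h, a tested difference of -0.97. The PFI-3 effect on Scd1 differed in the same test by -1.39, from 0.01 in GM to -1.38 at DM 24h. Of the 25 cholesterol synthesis genes, 4 had a PFI-3 effect that was higher at DM 48h than at DM 24h, where 7.12% of all genes were called higher in that test. Of the 12 fatty acid synthesis genes tested, 5 (Acly, Elovl6, Fads1, Fads2 and Me1) had a higher PFI-3 effect at DM 48h than at DM 24h. In a separate fit of these 4 groups, 19 of the cholesterol synthesis genes were called in this way, and 17.5% of all genes. The PFI-3 effect on Vldlr was lower at DM 48h than at DM 24h by a tested -1.66 on the log2 scale, from 2.00 to 0.34.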

How the results depend on the processing

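No called value of the 10 genes changed sign under the alternatives run. In GM, where 1 member was called, 2 were called with the replicate block, with DESeq2-style size factors, with DESeq2, without the low-count filter (each time Mylip and Srebf1), and with limma on log2(FPKM + 1) or log2(FPKM + 0.1) (Mylip and Nr1h2). In GM 0 were called when only the GM libraries were fitted, and 2 in that fit with the replicate block, an alternative added after the data were seen. Leaving out one library at a time gave 1 to 4. For the DM 24h effect minus the GM effect, with 2 members called, fitting only the 8 libraries involved gave 0, that fit with the block 1, and leaving out one library 0 to 5. The counts of 6 (PFI-3 at DM 24h), 7 (DMSO, GM to DM 24h) and 6 (PFI-3, GM to DM 24h) stayed within 5 to 6, at 7, and within 5 to 6 when a library was left out. The block changed no other call of a member. Same-letter libraries of the 2 treatments had deviations correlated by 0.488 in GM, and by 0.018 (DM 24h) and 0.037 (DM 48h). The letters thus went with a shared deviation in GM, and hardly at DM 24h or DM 48h. They were not taken as pairs in the main fit, since the labels do not say what they stand for. The fit of the GM libraries alone called 491 genes higher and 431 lower with the block, and 18 and 20 without it. On log2(FPKM + 1) the share of calls over all genes that were higher was 62.4% against 51.7% at DM 24h and 77.5% against 47% in GM. Fitting only the groups compared called 2859 genes higher and 2744 lower with PFI-3 at DM 24h, where the fit of all libraries called 1533 and 1433, and at DM 48h 2781 and 2863 in place of 1682 and 1756. List counts that it moved by over 1.5 times, from the value of the fit of all libraries, were at DM 24h sterol uptake (4 to 8 higher, 2 to 5 lower), further LXR targets (1 to 3 higher), RXR and coregulators (1 to 4 higher), fatty acid synthesis (0 to 1 higher) and oxysterol enzymes (0 to 1 lower). At DM 48h they were cholesterol synthesis (1 to 3 higher, 2 to 13 lower), fatty acid synthesis (1 to 2 higher, 2 to 5 lower), further LXR targets (2 to 5 lower), sterol uptake (1 to 5 higher) and RXR and coregulators (1 to 2 higher). DESeq2 called 0 RXR and coregulator genes higher at either DM stage, where edgeR called 1 at each. The cause was not tested. Depth limits Abca1, Nr1h3 and Apoe, whose counts were at most 20 before DM 48h.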
